A study of Mus musculus with 7 samples.

Results

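Open chromatin that leans to the same parental allele was examined at 49 autosomal sites of the mouse genome. They were found in a female embryonic stem cell line and in a pair of neural progenitor lines. At 25 of the sites the first-listed allele held most of the reads, and at 24 the second-listed allele did. These are 49 of 8781 sites at which the alleles could be compared in the 3 lines, and of the 28907 peaks of the stem cell list. Sites complete for a single allele were few, and most kept some signal from both. Peaks within 50 kb were balanced around most members in each line. In wild-type NPC balanced surroundings within 50 kb, though not within 100 kb, were less frequent than around testable sites at large beyond counting error. Within 25 kb this held in both NPC lines.

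ATAC-seq marks open chromatin by the places where the Tn5 transposase inserts sequencing adapters. In cells of a hybrid mouse, reads that span a base at which the parents differ can be given to an allele, so each allele reports on its own chromatin in the same nucleus. A lasting difference between alleles can come from the DNA sequence of the site itself, through the binding of transcription factors, or from genomic imprinting, in which the parent of origin sets the state of an allele.

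The female lines came from a 129S1 x Cast:EiJ F1 cross. They were embryonic stem cells (mESC, line F1216, kept in serum with mLIF), wild-type neural progenitor cells (NPC, line C2) and NPC labelled deltaFT (line sgdgb2), a change that the labels do not describe further. Both NPC lines were kept in N2/B27 with FGF and EGF. Another 4 lists came from male J1 mESC, a line of 129 origin. These cells, called TXY, carry a doxycycline-inducible Xist, the RNA that silences an X chromosome, in the endogenous gene. It was present with its RepA region (WT) or without it (deltaRepA), and the cells were untreated or given 2 ug/mL doxycycline (dox) for 48 hours. Each group was 1 sample, each female line is a single line, and each female sample held 2 libraries, whose allele counts were deposited as 1 value. Titles set the groups where another label disagreed: mESC are labelled as neural progenitors in a further field, and descriptions of the dox-treated TXY samples name the untreated list. The cross is given in a single form for all female lines, so strain and parent of origin cannot be told apart, and neither allele column carries a strain name. The labelled cell types were not checked against marker genes here, because gene positions of the build used by the files were not used. Sites are therefore given by position on mm9 without gene names.

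The lists held 27538 autosomal peaks in mESC, 39692 in wild-type NPC and 36036 in deltaFT NPC, with 6176798, 10724324 and 10845382 reads in them. Between 38.8% and 40.7% of these reads were given to an allele, and the first-listed allele held 47.9% to 50.4% of them. The peaks of the members had a −log10 p of at least 4.77 in each of the 6 libraries.

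The sites were chosen by their allele counts. Of 26334 autosomal mESC peaks outside 75 to 125 Mb of chromosome 12, 11215 overlapped a peak in both NPC lists, and 8781 of these had at least 20 allelic reads in each line. A site was kept if the first-listed allele held at most 30% of them in the 3 lines or at least 70% in the 3 lines. Thus 0.285% of testable sites were kept for the first-listed and 0.273% for the second-listed allele. In single lines the upper limit was met by 1.71% of the testable sites in mESC, 2.61% in wild-type NPC and 2.06% in deltaFT NPC. The lower limit was met by 2.05%, 2.51% and 3.11%. Nothing can be read from these shares at the 49 sites, since they were the basis of the choice. All intervals below are exact Clopper-Pearson 95% intervals. Where a count was 0, the share it allows is given as 3 counts of the total instead. These limits describe counting error and nothing else, because PCR copies of a molecule could not be told from separate molecules.

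The strength of the skew ran from complete to moderate. Over the 25 first-skewed sites the first-allele share had a median of 77.4% in mESC, 83.9% in wild-type NPC and 81.9% in deltaFT NPC, and over the 24 second-skewed sites 15.6%, 12.1% and 14.9%. Only 1 first-skewed site kept at least 95% first-allele reads in the 3 lines, and 3 second-skewed sites kept at most 5%. The share of a site differed between its highest and lowest line by a median of 10.5 points among first-skewed and 7.41 points among second-skewed sites, and by 26.4 and 26.1 points at most.

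**Figure D1:**
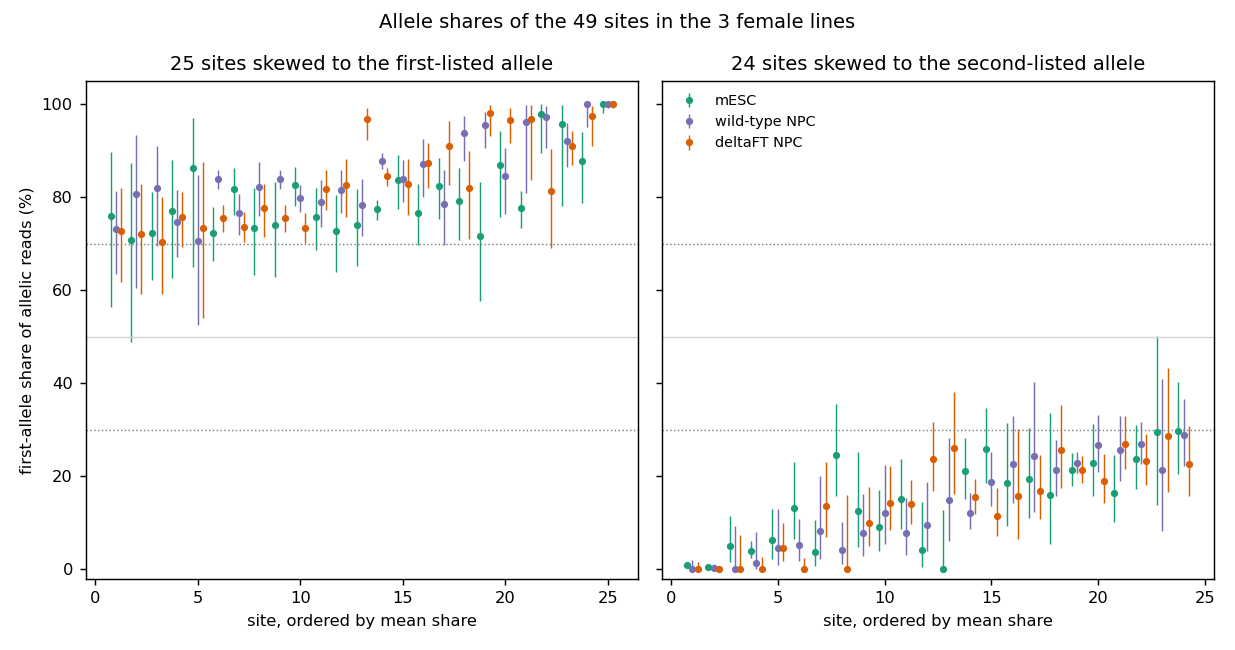
First-allele share of allelic reads (%, vertical axis) at each of the 25 first-skewed (left) and 24 second-skewed sites (right) in mESC, wild-type NPC and deltaFT NPC; bars are exact 95% intervals and dotted lines mark 30% and 70%. The limits chose the sites, so that all points lie outside them by construction; medians are 77.4% to 83.9% on the left and 12.1% to 15.6% on the right.

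The most complete first-skewed site lay on chromosome 1 at 90173721 to 90174440. All of its 196 allelic reads in mESC, 546 in wild-type NPC and 542 in deltaFT NPC came from the first-listed allele. The absence of second-allele reads allows a share of up to 1.53%, 0.549% and 0.554%. These reads were a small part of the site's signal, since 12.2%, 12.7% and 15.5% of its 1601, 4311 and 3496 reads were given to an allele.

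The strongest second-skewed site, on chromosome 17 at 71312946 to 71313281, was read almost wholly from the second-listed allele. First-allele reads numbered 11 beside 2013 in mESC, 2 beside 590 in wild-type NPC and 1 beside 841 in deltaFT NPC. Here nearly every read was allelic, at 98.1%, 99.7% and 97.9%. On chromosome 16 at 17222316 to 17222635 the counts were 9 and 1016 in mESC, 0 and 172 in wild-type NPC and 0 and 232 in deltaFT NPC. A second site of chromosome 16, at 57391360 to 57391847, had 20 and 486 in mESC, 1 and 66 in wild-type NPC and 0 and 134 in deltaFT NPC. The same chromosome thus held 2 of the 3 sites with at most 5% first-allele reads in every line, and chromosome 17 held the other.

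Partial skew could be as even across the lines as complete skew. The site on chromosome 7 at 48754495 to 48755413 had a first-allele share of 21.3% in mESC (17.9% to 25%), 22.9% in wild-type NPC (20.7% to 25.3%) and 21.3% in deltaFT NPC (18.5% to 24.3%). These rest on 545, 1322 and 802 allelic reads. On chromosome 17 at 56031074 to 56031588 it was 83.8% (77.5% to 89.0%), 83.9% (79.0% to 88.1%) and 82.8% (76.3% to 88.2%). In both, the 3 intervals overlapped. The other second-skewed sites with most allelic reads also kept both alleles open. Shares were 12.2% to 21.1% on chromosome 5 at 23356167 to 23356590 and 23.3% to 27.0% on chromosome 17 at 22362448 to 22362960. On chromosome 16 at 28753192 to 28753941 they were 19.1% to 26.8%, and on chromosome 2 at 101621558 to 101622006 they were 16.5% to 27.0%.

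Among the first-skewed sites, the peak on chromosome 15 at 99566009 to 99566572 had the most allelic reads. Its first-allele share was 77.4% in mESC (75.2% to 79.4%), 87.9% in wild-type NPC (86.0% to 89.6%) and 84.5% in deltaFT NPC (82.5% to 86.3%), so both NPC intervals lay above that of mESC. On chromosome 6 at 128753005 to 128753472 the shares were 82.6%, 79.9% and 73.5%, and on chromosome 11 at 101519481 to 101520239 they were 81.7%, 76.6% and 73.7%. On chromosome 7 at 7230557 to 7231124 they were 75.7%, 79.1% and 81.8%. A pair of mESC peaks on chromosome 18, at 9957650 to 9958253 and 9958349 to 9958603, matched the same NPC peak, so 49 mESC peaks stand for 48 NPC peaks. Their mESC shares were 72.4% and 74.0%, next to 83.9% and 75.5% in the shared peak of wild-type and deltaFT NPC.

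At some members the intervals of the first-allele share did not overlap between lines. The wild-type NPC interval lay above that of mESC at 5 of the 49, all first-skewed, and below it at 1, which was second-skewed. This was next to 5.72% and 3.91% of all testable sites. The deltaFT NPC interval lay above that of wild-type NPC at 2 sites and below it at 4, all first-skewed, near the 4.60% and 8.11% of all. Against mESC the deltaFT NPC interval lay above at 6, of which 4 were first-skewed, and below at 3, of which 1 was. This was next to 4.07% and 5.41%. A higher first-allele share is a stronger skew at first-skewed sites and a weaker one at second-skewed sites. The next 2 sites were chosen after their values were seen. On chromosome 1 at 135995797 to 135996056 the first-allele share was 71.7% in mESC (57.7% to 83.2%), against 95.5% in wild-type NPC (90.5% to 98.3%) and 98.1% in deltaFT NPC (93.2% to 99.8%). On chromosome 4 at 44085118 to 44085727 the first-allele reads went from 0 of 27 in mESC, which allows a share of up to 11.1%, to 7 of 47 in wild-type and 18 of 69 in deltaFT NPC. The rule kept the 3 lines past the same limit, which bounds how far such sites can move.

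The sites nearest to the limits had few reads or small margins. Just inside were chromosome 10 at 17667773 to 17668310, with a lowest share of 70.4%, chromosome 8 at 124999868 to 125000175 (70.6%) and chromosome 1 at 139275218 to 139275474 (70.8%). Just outside were chromosome 7 at 4477962 to 4478173 (69.9%), chromosome 18 at 84938240 to 84938584 (69.8%) and chromosome 7 at 146115836 to 146115954 (69.8%). On the other side, chromosome 1 at 182694030 to 182694301 (highest share 29.7%) and at 167250586 to 167250980 (29.6%), and chromosome 17 at 22362448 to 22362960 (27.0%), were just inside. Chromosome 17 at 59152570 to 59152887 (30.3%), chromosome 7 at 99175675 to 99175859 (30.6%) and chromosome 9 at 90021262 to 90021470 (30.6%) were just outside. The mESC interval of the chromosome 1 site at 139275218, which rests on 24 allelic reads, reached down to 48.9%.

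The same measure could be read in a line that took no part in the choice, though not as an independent sample. Sites were chosen in 2 lines and read in the other, among sites with at least 20 allelic reads in each line. Those that met the same limit in the line that was read are the members themselves. Of 37 sites at 70% or more in mESC and wild-type NPC, 25 were so in deltaFT NPC, which is 67.6% (50.2% to 82.0%) against 2.06% of all testable sites. Of 35 sites at 30% or less in these lines, 24 were so in deltaFT NPC, or 68.6% (50.7% to 83.1%) against 3.11%. No site of either set was past the opposite limit in deltaFT NPC, and a count of 0 allows up to 8.11% and 8.57%. The 3 lines share a cross and its variant bases.

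The share that met the limit differed with the line that was read. The sites that met it were the same 25 and 24 members each time, so only the number of sites chosen differed. With wild-type NPC read, 25 of 33 (75.8%, 57.7% to 88.9%) and 24 of 33 sites (72.7%, 54.5% to 86.7%) met the limit. With mESC read, 25 of 62 (40.3%, 28.1% to 53.6%) and 24 of 67 (35.8%, 24.5% to 48.5%) did. The median share of the sites skewed in both NPC lines was 62.6% and 35.6% in mESC, and 2 of the 62 were past the opposite limit there. The shares read in mESC lay below those read in either NPC line, although for the first-listed allele the intervals of mESC and deltaFT NPC overlapped. The lines were compared over partly the same sites, and mESC had the fewest reads.

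**Figure D2:**
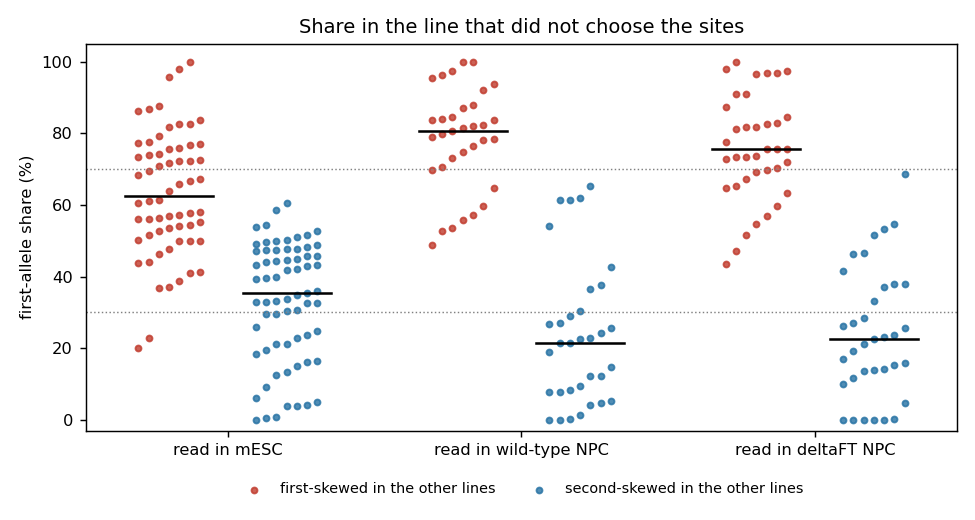
First-allele share (%) of sites in the line that did not choose them: each dot is a site at 70% or more (red) or 30% or less (blue) in the other lines, bars are medians and dotted lines mark 30% and 70%. Medians in mESC (62.6% and 35.6%) lie nearer to 50% than those in wild-type NPC (80.8% and 21.4%) and deltaFT NPC (75.5% and 22.7%).

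Around most members the pooled share of other peaks lay between the limits. Other peaks with at least 20 allelic reads and centres within 50 kb were pooled for each member, the members themselves left out. In mESC, 33 of the 49 had such neighbours and the pooled share lay between the limits for 31 of them, or 93.9% (79.8% to 99.3%). In wild-type NPC it did so for 33 of 41 (80.5%, 65.1% to 91.2%) and in deltaFT NPC for 33 of 38 (86.8%, 71.9% to 95.6%). The same held for 96.1%, 94.4% and 94.9% of all testable sites with neighbours. In wild-type NPC the interval of the members thus lay below the share of all sites. The closer peaks differed more. Within 25 kb the pooled share lay between the limits for 23 of 34 members in wild-type NPC (67.6%, 49.5% to 82.6%) against 92.2% of all. In deltaFT NPC it did so for 24 of 30 against 93.7%. In mESC it was so for 21 of 24 (87.5%, 67.6% to 97.3%) against 94.7%. Within 100 kb the wild-type NPC value was 91.3% (79.2% to 97.6%) against 97.2% of all, so that its interval covered the share of all sites. Over all neighbours within 50 kb of first-skewed sites the pooled first-allele share was 48.5% in mESC, 52.4% in wild-type NPC and 52.5% in deltaFT NPC. Around second-skewed sites it was 44.0%, 48.9% and 47.8%.

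Neighbours on the same side of a limit as the member were found for 1 member in mESC, 7 in wild-type NPC and 4 in deltaFT NPC. At the upper limit or above were 0, 4 and 1 members' neighbours, next to 1.71%, 3.02% and 2.07% of all testable sites. At the lower limit or below were 2, 4 and 4, next to 2.23%, 2.63% and 3.01%. In wild-type NPC the chromosome 18 pair counts for both members, with the same neighbour at 75.8%. Some of these neighbours were very close. In wild-type NPC such a peak lay 0.923 kb from the chromosome 7 site at 48754495 and 0.924 kb from the chromosome 10 site at 17667773. In deltaFT NPC 1 lay 0.552 kb from the chromosome 17 site at 22362448. Another lay 0.421 kb from the chromosome 2 site at 176991113 to 176991465, which was named after its values were seen. Whether such peaks belong to the same site was not tested. A single second-skewed member had same-sided neighbours in the 3 lines. This was chromosome 17 at 30712976 to 30713569, a site picked for its surroundings once its values were known, with a first-allele share of 26.0%, 18.9% and 11.6%. Its neighbour in mESC was a peak 22.2 kb away, with 0 first-allele and 44 second-allele reads. In the NPC lines the neighbour was a different peak, 14.4 kb away, with no first-allele reads beside 25 in the wild-type line and 24 in the deltaFT line.

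At the complete site of chromosome 1 the surroundings went the other way. Against 0 second-allele reads at 90173721 to 90174440, its neighbours had 19 reads of the first and 48 of the second-listed allele in mESC, 36 and 217 in wild-type NPC and 21 and 82 in deltaFT NPC. Their first-allele share was 28.4%, 14.2% and 20.4%.

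Opposite skews also lay side by side on chromosome 7. The first-skewed site at 7230557 to 7231124, with 75.7% to 81.8%, ended 21.0 kb before a second-skewed member at 7252168 to 7252558, named for this position after its values were seen. The first-allele share of that member was 12.5% in mESC (4.73% to 25.2%), 7.79% in wild-type NPC (2.91% to 16.2%) and 10.1% in deltaFT NPC (4.95% to 17.8%). A peak centred 1.06 kb from it in mESC, between both members, had 171 and 233 reads, a first-allele share of 42.3%. In the NPC lines that peak lay 1.15 and 1.12 kb away, with a first-allele share of 46.2% and 52.1%. The peak next to this member thus lay between the limits in the 3 lines.

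Most members had no other member nearby. Of the 49, 6 (12.2%, 4.63% to 24.8%) had another within 100 kb, next to 1.20% of all testable sites with a member other than themselves at that distance. These were the pairs on chromosomes 7 and 18 and a pair of second-skewed sites 76.2 kb apart on chromosome 17, at 71312946 and 71389486. The pair on chromosome 18 is a single peak in the NPC lines. No run of more than 2 members occurred at this distance. Of 19 autosomes, 15 held members, part of chromosome 12 having been left out. Chromosome 16 held 7 of 304 testable sites (2.30%), chromosome 1 held 9 of 591 (1.52%) and chromosome 17 held 6 of 414 (1.45%), whereas chromosomes 3, 12, 14 and 19 held none. Over all chromosomes 0.558% of testable sites were members.

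**Figure D3:**
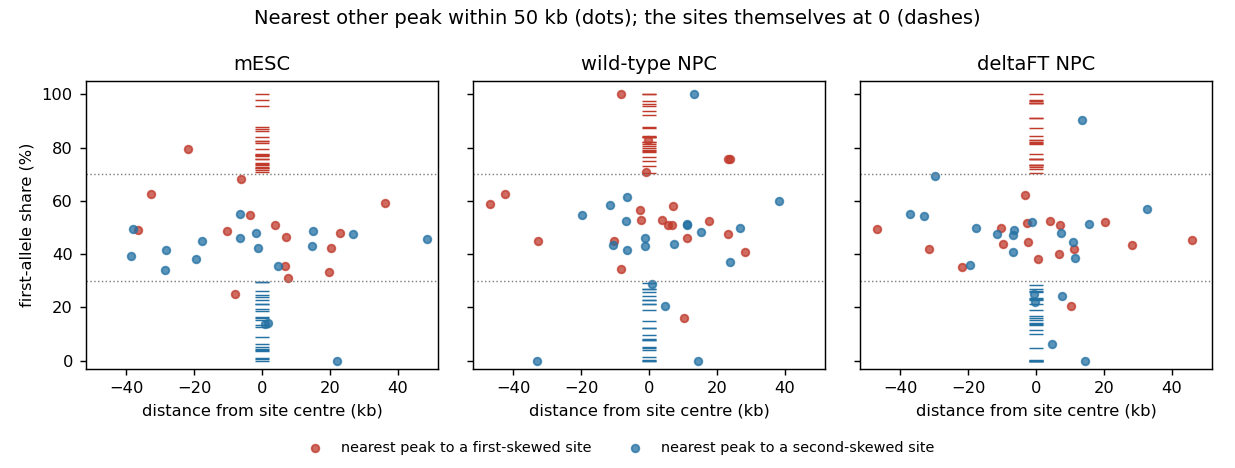
First-allele share (%) of the nearest other peak within 50 kb (dots) against its distance from the centre of the member (kb), for first-skewed (red) and second-skewed members (blue), with the members' own shares as dashes at 0 and dotted lines at 30% and 70%. Most nearest peaks lie between the limits; blue dots at 0% near 14.4 and 22.2 kb belong to the chromosome 17 site.

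The members included some of the densest testable sites. By reads per bp of peak, 7 of 49 (14.3%, 5.94% to 27.2%) were among the densest 87 testable sites of mESC, which are 0.991% of all. In wild-type NPC there were 3 (6.12%, 1.28% to 16.9%) and in deltaFT NPC 4 (8.16%, 2.27% to 19.6%). At the other end, 18, 15 and 15 of the 49 were among the least dense 25% of sites. The partly skewed site of chromosome 15 at 99566009 ranked 1 of the testable sites in each line, with 9.97, 8 and 8.48 reads per bp. The complete first-skewed site of chromosome 1 ranked 10, 2 and 2. In mESC ranks 2, 3 and 4 were the second-skewed sites on chromosome 16 at 57391360, on chromosome 17 at 71312946 and on chromosome 16 at 17222316. The 4 densest of the testable sites in mESC were thus all members.

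Members were narrower than other sites. Their median mESC width was 435 bp against 532 bp, a ratio of 0.818 with a 95% interval of 0.735 to 0.968 from the order of the members' widths. The part of the reads that could be given to an allele differed by direction. Its median was 60.3% in mESC, 48.3% in wild-type NPC and 52.1% in deltaFT NPC over first-skewed sites, and 32.9%, 37.5% and 40.9% over second-skewed sites. Other testable sites had 47.8%, 47.4% and 50.3%. The span from the lowest to the highest member was wide in either direction, from 12.2% to 96.8% for first-skewed and 10.2% to 98.1% for second-skewed sites in mESC.

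Total reads include the allelic reads, whose minimum of 20 in each line was part of the rule. They were compared between the lines after scaling to the same total in each line (normalised reads, RPM). With 1 sample per line no test was possible, and a 2-fold difference was taken as the limit. From mESC to wild-type NPC, 5 members were at least 2-fold higher and 11 at least 2-fold lower, next to 13.6% and 8.76% of all testable sites. Together they were 32.7% of the members (19.9% to 47.5%), against 22.4% of all. Between the NPC lines 1 member was higher and 3 were lower in deltaFT, or 8.16% (2.27% to 19.6%), next to 6.22%, 3.91% and, for either way, 10.1% of all. The median log2 ratio from mESC to wild-type NPC was 0.35 for first-skewed and 0.11 for second-skewed sites, next to 0.08 over all.

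Of the 11 lower members, 8 were second-skewed, and these included sites nearly complete for their allele. The site of chromosome 16 at 57391360 had 1324 RPM in mESC and 115 in wild-type NPC, 11.5-fold lower, and the site at 17222316 had 316 and 35.5, 8.89-fold lower. On chromosome 17 at 71312946 the values were 571 and 113, 5.03-fold lower. On chromosome 13 at 44964887 to 44965434, a site chosen after its values were seen, they were 267 and 34.9, 7.65-fold lower. In deltaFT NPC these 4 sites were 7.24-fold, 7.34-fold, 3.80-fold and 5.03-fold lower than in mESC. Each stayed almost wholly second-allele in the 3 lines, the chromosome 13 site with 5 of 99, 0 of 38 and 0 of 48 first-allele reads.

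A first-skewed site, on chromosome 16 at 42305867 to 42306585, fell in the same way and was also chosen after its values were seen. It had 722 reads in mESC, 100 in wild-type NPC and 84 in deltaFT NPC, which is 10.5-fold and 13.6-fold lower in RPM. Its allele counts were 356 and 103 in mESC, 26 and 1 in wild-type NPC and 31 and 1 in deltaFT NPC. The NPC peaks were narrower, 210 and 185 bp against 719 bp, so the shares do not describe the same stretch.

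Of the 5 members with more reads in wild-type NPC, 4 were first-skewed, which is 4 of 25 and near the 13.6% of all testable sites; 2 of these are the chromosome 18 pair. On chromosome 10 at 57161004 to 57161136, a site named after its values were seen, there were 14.4 RPM in mESC and 72.4 in wild-type NPC, 5.03-fold higher. The peak was 133 bp wide in mESC and 338 bp in wild-type NPC, and its first-allele share was 95.7%, 92.1% and 91.1% in the 3 lines. The pair on chromosome 18 was 3.08-fold and 10.1-fold higher, but a single NPC peak spans both mESC peaks, so these ratios count its 1614 reads against each of them.

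**Figure D4:**
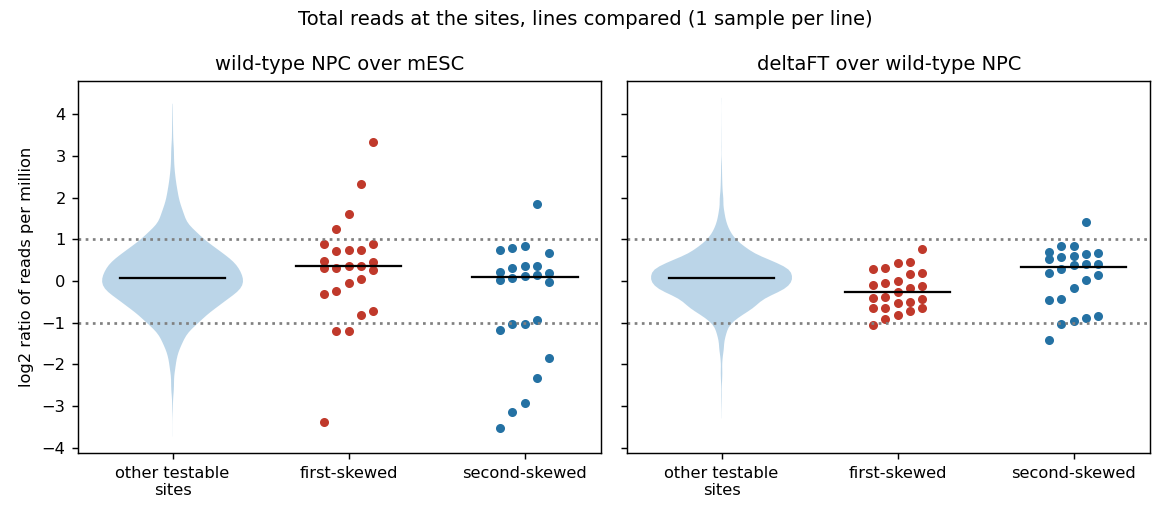
Log2 ratio of RPM, wild-type NPC over mESC (left) and deltaFT over wild-type NPC (right), for other testable sites (violin) and for first-skewed and second-skewed members (dots); bars are medians and dotted lines mark a 2-fold difference. The lowest second-skewed dots on the left reach -3.52, and 8 of them lie at or below -1.

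The male TXY lists come from other cells, were not part of the choice and carry no allele counts, so they report on presence and strength. Of the 49 members, 42 (85.7%, 72.8% to 94.1%) overlapped a peak in all 4 lists, against 8638 of 8732 other testable sites (98.9%, 98.7% to 99.1%). The 7 that were missing from at least 1 list compare with 1.15% of all testable sites. The contrast was smaller among TXY peaks with a −log10 q of at least 5, where 9 of the 49 and 9.32% of all testable sites were missing from at least 1 list. Missing from all 4 were 3 members and 2 other testable sites, 0.0569% of all.

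The intervals of the share found in male cells overlapped between the directions in each list. In the untreated WT list 23 of 25 first-skewed (92.0%, 74.0% to 99%) and 22 of 24 second-skewed sites (91.7%, 73.0% to 99%) were found, next to 99.8% of all testable sites. With dox these were 92.0% and 87.5%, next to 99.7%. In deltaRepA they were 92.0% and 83.3% without dox and 96.0% and 87.5% with dox, next to 99.4% in both. The members without a peak in these lists, in the same order, were 4, 5, 6 and 4 of 49, next to 0.194%, 0.342%, 0.638% and 0.569% of all testable sites. The gap between the directions was 0.333, 4.50, 8.67 and 8.50 points in these lists and changed sign under some settings in both WT lists.

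The sites absent from male cells included a very strong peak of the female lines. The densest testable site of the female lines, on chromosome 15 at 99566009, had 5621, 4640 and 4749 reads and overlapped no peak in any TXY list. The nearest TXY peaks were 9.46 to 9.55 kb away. The other members missing from all 4 lists were second-skewed and were chosen after their values were seen. On chromosome 16 at 4495996 to 4496305, 161, 268 and 297 reads were found in mESC, wild-type NPC and deltaFT NPC, with 86.7%, 94.8% and 100% from the second-listed allele. On chromosome 7 at 142927354 to 142927775 there were 270, 191 and 280 reads, with 96.2%, 91.7% and 86.4% from that allele. These sites were not among the densest. By reads per bp the chromosome 16 site was at percentiles 53.4, 55.4 and 33.1 of testable sites. The chromosome 7 site was at 72.4, 19.4 and 41.6, in the same order of lines.

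A first-skewed site on chromosome 17 at 6429026 to 6429459, also singled out from its values, differed between the male genotypes. It was absent from both WT lists, whose nearest peaks were 111 kb away. It was present in deltaRepA without dox with a −log10 p of 30.4 and with dox with 50.1, at percentiles 74.2 and 91.6 of the testable sites of these lists. The remaining sites missing from some lists were weak where found. The site on chromosome 10 at 57161004 had a −log10 p of 3.50 to 4.89, and that on chromosome 2 at 101621558 had 4.10 to 5.58. The site on chromosome 17 at 71389486 to 71389668 was found once, with 11.4.

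Members that were present ranked from the weakest to the strongest peaks. Within each list the −log10 p of first-skewed sites had a median percentile of 69.2, 59.1, 72.6 and 69.3 among testable sites, in the order WT without dox, WT with dox, deltaRepA without dox and deltaRepA with dox. That of second-skewed sites was 62.7, 54.8, 62.4 and 60.4. Of the 8 second-skewed sites that were at least 2-fold lower in wild-type NPC than in mESC, the 4 with the largest ratios were at percentile 88.0 or above in each male list. The other 4 were not: the site on chromosome 9 at 45714382 to 45715098, named after its values were seen, was at 11.8 to 15.5, and that on chromosome 7 at 142927354 was in no list. The site on chromosome 16 at 57391360 had a −log10 p of 223, 240, 175 and 160, and that on chromosome 17 at 71312946 had 92.2, 102, 68.6 and 59.9. Each list is 1 merged sample, so differences between them have no replicate check.

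**Figure D5:**
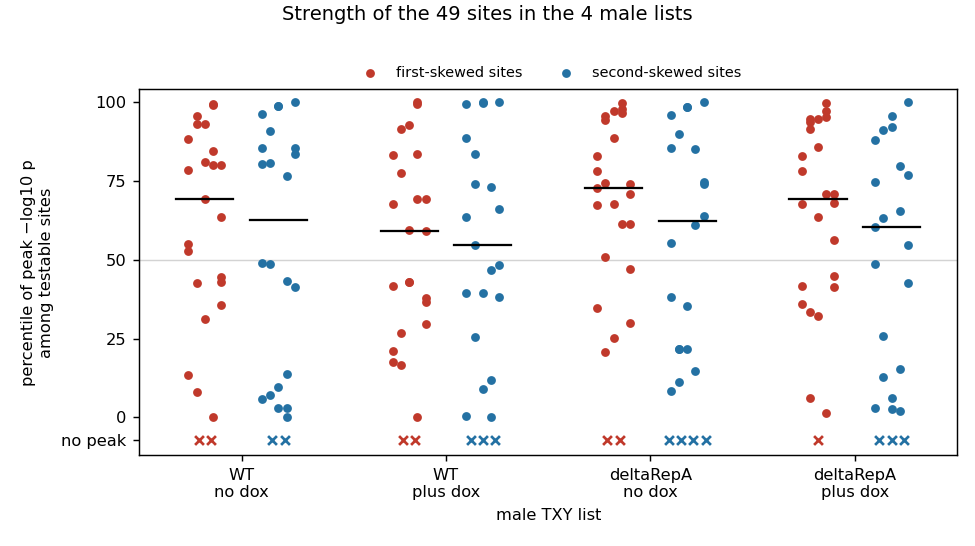
Percentile of the −log10 p of the overlapping TXY peak among testable sites, for first-skewed (red) and second-skewed members (blue) in the 4 male lists; bars are medians and crosses are members with no peak. Medians lie between 54.8 and 72.6, and 4, 5, 6 and 4 members have no peak.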

How the data were processed

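The submitters' processing notes name cutadapt, Bowtie2, MACS2 and mm9. How reads were assigned to the alleles, duplicates and any Tn5 shift are not stated in the labels or file headers. A read that carries bases of the allele unlike the reference may align less well, which can move allele shares. The authors deposited, for each female line, peaks reproducible between its 2 libraries, with raw read counts in total and per allele and the −log10 p of each library. Each TXY list, which the authors deposited for merged libraries, gives fold enrichment (a ratio, unused here) and −log10 p and q values. Starts equalled those of the library lists, so 1 was added to print them.

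Peaks were matched by the largest overlap of at least 1 bp. The steps ran in python 3.11.15 (pandas 2.3.3, numpy 2.4.6, scipy 1.17.1, with plots by matplotlib 3.10.9) and were tested on simulated data. No test between groups was possible with 1 sample each. Named sites are the 8 per direction with most allelic reads, the 3 nearest to each limit and members of 1 direction within 100 kb of each other; others are marked. The sites, lists and limits were chosen with earlier results of these data known; neighbours and peak density were added after values were seen. Gene lists and motifs were not applied, as no annotation or genome of mm9 was used.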

Additional observations from a re-analysis of the deposited data

Results flagged for a closer look

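Past a limit in the 3 lines but in mixed directions were 2 sites, and in each both NPC lines leaned the other way from mESC. On chromosome 12 at 14095884 to 14096191 the first-allele share was 20% in mESC (5.73% to 43.7%), 72.4% in wild-type NPC (52.8% to 87.3%) and 70% in deltaFT NPC (45.7% to 88.1%), on 20, 29 and 20 allelic reads. On chromosome 17 at 79294336 to 79294893 it was 23.0% (13.2% to 35.5%), 87.5% (71.0% to 96.5%) and 84.6% (69.5% to 94.1%) in the same order, with 14 first-allele and 47 second-allele reads in mESC, 28 and 4 in wild-type NPC and 33 and 6 in deltaFT NPC. The difference between the cell types was not tested, since each line is 1 sample. By comparison 49 sites were past a limit in the same direction in the 3 lines.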

How the results depend on the processing

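Of 70 recomputed values for 16 results, 55 moved by less than their counting interval or 1.5 times. With limits of 20% and 80% there were 6 first-skewed and 10 second-skewed sites, and with 35% and 65% 44 and 48, so their number is set by the limits. With at least 50 allelic reads 14 second-skewed sites were left, all among the 24. Read in mESC, 40.3% and 35.8% of sites chosen in the NPC lines met the limit. The gap in TXY presence between directions turned to -3.38 points in both WT lists with at least 50 allelic reads and to -3.47 in WT without dox when weighted to read counts. With limits of 20% and 80% it was 20 points in these lists and in deltaRepA with dox. With those limits 0.00% of members had another within 100 kb. With neighbours within 100 kb, a setting chosen after seeing the data, 91.3% of members in wild-type NPC had balanced neighbours, next to 97.2% of all, and within 25 kb 67.6%, next to 92.2%. With TXY peaks of −log10 q of at least 5, also chosen so, 9 members were missing from some list, next to 9.32% of all testable sites. The causes were not tested. No paired analysis was possible because each group is 1 sample. Depth limits sites near 20 allelic reads, whose intervals are the widest.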

Other observations

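Sites past the same limit in both NPC lines but not in mESC outnumbered those past it in the 3 lines. Both NPC lines were past a limit at 142 of 8781 testable sites, in the same direction at 129 and in opposite directions at 13. At 78 of the 129 mESC lay between the limits, 35 for the first-listed and 43 for the second-listed allele. Being between the limits does not mean balanced. Of all sites past the same limit in both NPC lines, members included, most leaned to the same allele in mESC. These were 48 of 62 for the first-listed and 58 of 67 for the second-listed allele, next to 46.3% and 51.0% of all testable sites.

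Most skewed mESC peaks had no partner in both NPC lists. Of 20469 autosomal mESC peaks with at least 20 allelic reads, 965 were at 70% or more and 1077 at 30% or less. Of these, 168 (17.4%) and 197 (18.3%) overlapped a peak in both NPC lists, next to 9108 of the 20469 (44.5%). The peaks were not matched for read number, and a share passes a limit more easily by counting error when allelic reads are few. Whether read number accounts for the gap was not tested. Of the 168 and 197 matched peaks, 150 and 180 had enough allelic reads in both NPC lines, and 25 and 24 were members.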
